A study of Mus musculus with 8 samples.

Results

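RNA levels of 10 markers of fibro-adipogenic progenitors (Pdgfra, Ly6a, Dcn, Lum, Gsn, Dpt, Scara5, Pi16, Dpp4 and Bche) were followed through culture in 2 kinds of mouse skeletal myogenic cells. The markers were a list chosen by name, with earlier results of these data known. They were 10 of the 24980 genes in the count table, and all 10 were found in it. TF denotes fresh myogenic progenitors that were sorted out of teratomas, which E14-EGFP embryonic stem cells (1 EGFP-labeled line) formed in irradiated, cardiotoxin-injured tibialis anterior muscle of NSG-mdx4Cv mice. They were EGFP+, lineage-negative (CD31- and CD45-), positive for α7-integrin and positive for VCAM-1, and TE cells were such progenitors cultured to passage 8. SF denotes satellite cells, the resident stem cells of muscle, freshly isolated from adult animals, and SE denotes such cells cultured to passage 8. Each group had 2 libraries made with a strand-specific kit for total RNA and read from both ends. The replicates are described as biological, but whether they came from separate animals, teratomas or cultures is not given in the sources used here, nor are the ages of the mice and the gate used for SF, so the p-values measure only the spread between these samples. Cultured cells were grown on gelatin.

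Fibro-adipogenic progenitors are the mesenchymal stromal cells that lie between muscle fibers. They are recognized by the PDGF receptor Pdgfra and the surface antigen encoded by Ly6a, secrete collagen and the proteoglycans that organize it, support satellite cells after injury, and can become adipocytes or matrix-depositing fibroblasts. In many tissues such cells include a subset marked by Pi16 and Dpp4, and in muscle the matrix genes Dcn, Lum and Dpt and the enzyme Bche are also enriched in them. They are not myogenic, and they do not belong to the intended content of a sort for α7-integrin and VCAM-1.

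The 8 libraries held between 11930961 and 21146632 estimated counts, with 7.99% to 21.3% of them from the ribosomal RNA precursor Rn45s. Levels are given as normalized counts, which are counts divided by the median-ratio size factor of the library. A marker with at most 3 counts in a library was treated as at the limit of detection, which corresponded to 2.15 to 3.89 normalized counts and covers counting error only. The satellite cell factor Pax7 was present in every library, with 3067 and 4914 normalized counts in TF, 1503 and 1241 in TE, 4046 and 4581 in SF, and 1743 and 1174 in SE. Itga7, which encodes the α7-integrin of the sort, stood between 2354 and 5761 normalized counts in all 8 libraries. Neither was steady through culture. In the tests given below, Pax7 was called lower in TE than in TF and in SE than in SF, and Itga7 higher in TE than in TF. In bulk RNA, a smaller share of cells of a type and less RNA per cell cannot be told apart.

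The promoters of 4 markers are shown because these genes took different courses in TE. Bche stayed well above the limit of detection there, Pdgfra passed it narrowly, with 12 and 4 counts, and Dpt and Pi16 did not pass it. The sequences are the 250 bases before the transcript start in RefSeq (GRCm38.p6), read 5′ to 3′ on the strand of the gene. The Pi16 window lies inside the gene as annotated in GENCODE M21, where it starts at 29317680. The bases before that earlier start are not shown. Capitals mark matches, on either strand, to GGGCGG (the box bound by SP and KLF factors) or TTGCNNAA (a C/EBP site).
Bche, chr3:73708416-73708665, minus strand: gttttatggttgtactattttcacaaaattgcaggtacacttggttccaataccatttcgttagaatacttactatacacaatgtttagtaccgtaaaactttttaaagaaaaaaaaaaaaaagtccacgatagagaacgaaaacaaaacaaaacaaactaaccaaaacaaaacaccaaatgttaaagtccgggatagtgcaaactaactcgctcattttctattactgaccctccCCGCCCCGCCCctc
Pdgfra, chr5:75152001-75152250, plus strand: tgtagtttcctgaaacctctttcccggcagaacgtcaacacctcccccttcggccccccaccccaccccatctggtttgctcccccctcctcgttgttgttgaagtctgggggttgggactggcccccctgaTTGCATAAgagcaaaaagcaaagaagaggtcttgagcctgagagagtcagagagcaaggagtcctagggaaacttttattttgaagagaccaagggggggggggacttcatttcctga
Dpt, chr1:164796413-164796662, plus strand: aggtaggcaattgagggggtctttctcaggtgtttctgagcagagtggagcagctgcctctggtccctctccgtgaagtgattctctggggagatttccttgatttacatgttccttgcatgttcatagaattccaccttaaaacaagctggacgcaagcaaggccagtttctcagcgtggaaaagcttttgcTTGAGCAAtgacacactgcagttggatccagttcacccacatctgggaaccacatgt
Pi16, chr17:29318632-29318881, plus strand: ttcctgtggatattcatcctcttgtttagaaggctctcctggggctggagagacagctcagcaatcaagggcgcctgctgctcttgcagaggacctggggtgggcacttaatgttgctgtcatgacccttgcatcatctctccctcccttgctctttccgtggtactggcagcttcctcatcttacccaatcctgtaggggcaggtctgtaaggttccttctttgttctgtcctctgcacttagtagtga

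The Bche window was the poorest in G and C of the 4, at 35.6%, yet held the most CpG dinucleotides, 8. The other windows had 54.4% and 4 CpG in Pdgfra, 48.8% and 3 in Dpt, and 52.4% and 2 in Pi16. RefSeq windows were found for 6 of the 10 markers (8 windows, 3 of them for Gsn). GGGCGG was present in 4 of these 8 windows, in Bche and Gsn, and in 32.7% of 32851 windows of all genes. TTGCNNAA was present in the Dpt and Pdgfra windows and in 9.56% of all windows. The TATA box (TATAAA) was found in the Dpp4 window and in 12.4% of all windows, and the AP-1 site (TGANTCA) in none of the 8 windows and in 6.75% of all. The matches are letters in these windows and were not tested as sites.

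All 10 markers were above the limit of detection in both fresh groups. Per kilobase of transcript (GENCODE M21, GRCm38), Dcn was the highest of them in TF, at 7322 normalized counts per kilobase, followed by Gsn at 5255 and Dpt at 2078. The order went on with Lum at 1943, Pi16 at 1153, Pdgfra at 797, Scara5 at 362, Ly6a at 214, Bche at 42.3 and Dpp4 at 10.4 per kilobase. Dpt and Lum were the only neighbors in this order whose TF libraries overlapped, and within each TF library Dpt stood above Lum. Dcn encodes decorin, a proteoglycan that coats collagen fibrils, and Gsn the actin-severing protein gelsolin. In SF the order was Gsn at 26116 per kilobase, Dcn at 7360 and Dpt at 2453, then Lum at 468, Pdgfra at 334, Scara5 at 330, Ly6a at 220, Pi16 at 188, Bche at 27.1 and Dpp4 at 16.3. The SF libraries of each neighboring pair from Lum to Pi16 overlapped, as did those of Bche and Dpp4. Within each SF library, however, Scara5 stood above Ly6a, Ly6a above Pi16, and Bche above Dpp4. The order of Lum and Pdgfra, and that of Pdgfra and Scara5, differed between the 2 SF libraries and was not resolved.

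**Figure D1:**
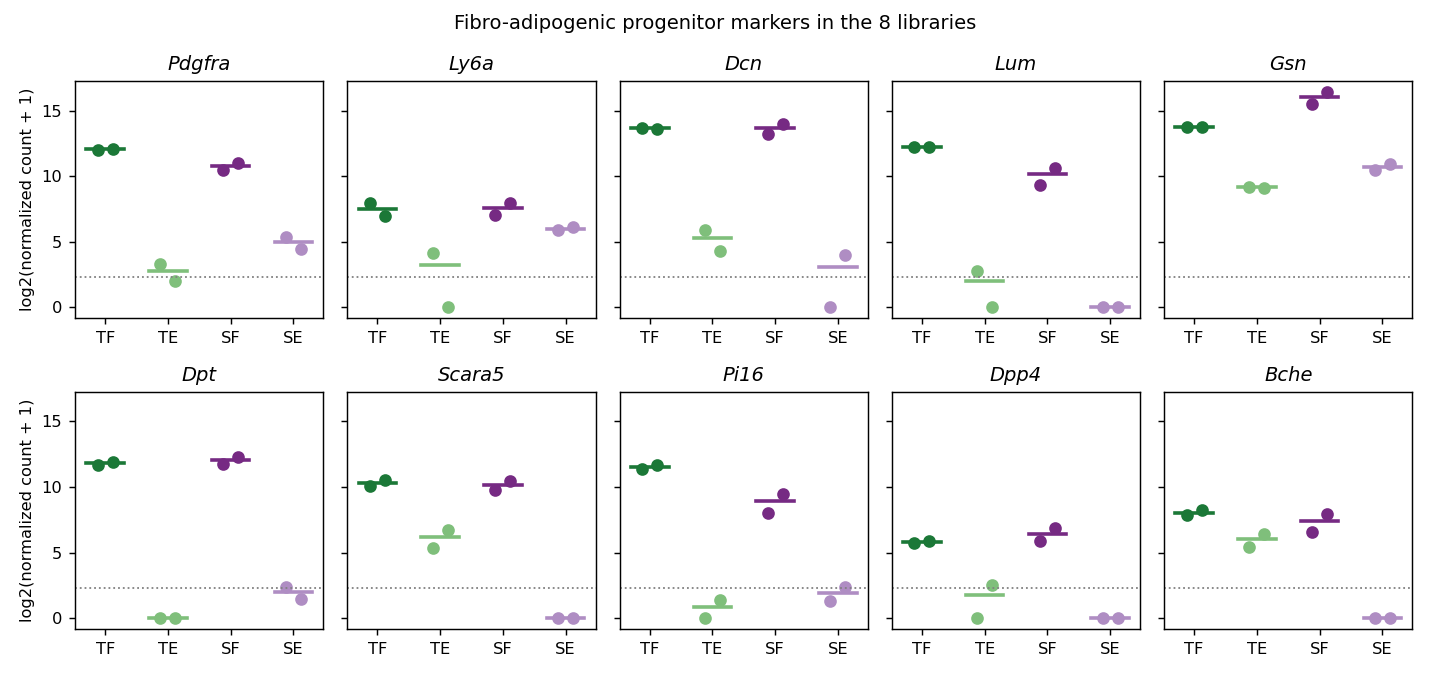
Level of each marker in each library, as log2(normalized count + 1), in fresh (TF, SF) and expanded (TE, SE) cells. Points are single libraries, bars are the log2 of the group mean (n = 2) and the dotted line is the highest limit of detection of a library, 3.89 normalized counts. In every panel both expanded libraries of an origin lie below both fresh libraries of that origin, and the points of Dpt in TE and of Lum, Scara5, Dpp4 and Bche in SE lie at 0.

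Culture of teratoma-derived cells was compared first (TE versus TF). Of the 10 markers, 8 fell and 0 rose at an adjusted p below 0.05 and the study's minimum fold change in edgeR's quasi-likelihood test, and both TE libraries were below both TF libraries for all 10. None of the 10 had a positive fitted change, whether in edgeR or in DESeq2, so that 0 rose at an unadjusted p below 0.05 as well. Of the 17582 genes tested, 16.2% were called lower and 9.86% higher. The median log2 fold change was -6.45 over the markers and -0.18 over all genes tested. A marker that is at or near 0 after culture passed the filter on low counts through its fresh libraries, so the count of falling markers is a description and not a test of the list.

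Pdgfra, the receptor for PDGF-A and the defining surface marker of these progenitors, had 4158 and 4320 normalized counts in TF. It had 8.99 and 3.08 in TE, from 12 and 4 counts. The groups were far apart, and the TE level was 702-fold below that of TF (95% interval of counting error at least 429) with a log2 fold change of -9.37 ± 0.481 (SE) and an adjusted p of 3.13e-06. Counting intervals, and folds given as at least a value, leave out the spread between libraries. Dpt, which encodes dermatopontin, a small matrix protein that binds decorin, went from 3341 and 3825 normalized counts to 0 in both TE libraries, at least 1572-fold lower (adjusted p = 2.48e-06). Pi16, a peptidase inhibitor that marks the fibroblast subset named above, went from 2623 and 3331 to 0 and 1.54. Both TE libraries were thus at the limit of detection for Pi16, and the ratio was 3861 with a lower 95% counting bound of 1087 (adjusted p = 1.25e-05).

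The collagen-binding proteoglycans did not reach 0 in every TE library. Dcn fell from 13515 and 12229 normalized counts to 57.7 and 18.5, a 338-fold lower level (log2 fold change -8.34 ± 0.787 SE, adjusted p = 7.22e-05). Lum, which encodes lumican and lies next to Dcn on chromosome 10, had 4732 and 4780 in TF and 5.99 and 0 in TE (ratio 1588, lower 95% counting bound 794, adjusted p = 3.92e-05). Lum was therefore detected in only 1 TE library, with 8 counts. Ly6a behaved likewise, with 245 and 124 normalized counts in TF and 16.5 and 0 in TE (log2 fold change -4.41 ± 1.16 SE, adjusted p = 0.0201). Reads of Ly6a may have been shared with its near relatives of the Ly6 cluster, such as Ly6c1, by the authors' counting, so its level is uncertain.

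Gsn and Scara5 stayed above the limit of detection in both TE libraries, with 53 or more counts. Gsn stood at 13732 and 13908 normalized counts in TF and at 573 and 560.5 in TE, so that 4.10% was left (log2 fold change -4.55 ± 0.354 SE, adjusted p = 2.46e-05). Scara5, a scavenger receptor that takes up ferritin, went from 1076 and 1476 to 39.7 and 107, with 5.75% left (log2 fold change -4.06 ± 0.492 SE, adjusted p = 0.000496). Bche, the secreted esterase butyrylcholinesterase, kept the largest part of the 10 markers. It had 227 and 298 normalized counts in TF and 41.2 and 84.8 in TE, which is 24.0%, and the difference did not pass the test (log2 fold change -2.00 ± 0.645 SE, adjusted p = 0.0510, range over the alternatives 0.00970 to 0.258). Dpp4, the membrane peptidase that marks the same subset as Pi16, was low from the start, with 51.9 and 57.8 in TF and 0 and 4.70 in TE. Its TE libraries stood below both TF libraries, with an adjusted p of 0.0653 (range over the alternatives 0.00614 to 0.212).

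Culture of satellite cells (SE versus SF) was compared next. Of the 10 markers, 9 fell and 0 rose, and both SE libraries were below both SF libraries for all 10, again with no positive fitted change in edgeR or DESeq2. Of all genes tested, 19.8% were called lower and 20.9% higher. Under DESeq2 the split of all called genes moved from 3677 higher of 7152 to 3307 higher of 8243. The median log2 fold change was -9.77 over the markers and -0.23 over all genes. The former rests in part on the fitted value of Dpp4, which had 0 counts in both SE libraries. It therefore has no size and cannot be set against the median of the markers in TE.

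Lum, Scara5, Dpp4 and Bche had 0 counts in both SE libraries. Scara5 had 890.5 and 1436 normalized counts in SF and was at least 493-fold lower in SE (adjusted p = 2.38e-05). Lum had 661 and 1628 in SF and was at least 485-fold lower (adjusted p = 4.81e-05), and Bche, with 94.3 and 242 in SF, was at least 71.2-fold lower (adjusted p = 0.000246). All 3 of these genes stood far above the limit of detection in both SF libraries. Dpp4 started at 57.0 and 115, so that its loss could be bounded only at 36.4-fold (adjusted p = 0.00817). The bounds of these genes take the SF mean, and the first SF library alone would give a smaller fold for each.

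Dcn, Dpt and Pi16 were detected in 1 of the 2 SE libraries. Dcn went from 9758 and 16120 normalized counts in SF to 0 and 14.6 in SE (ratio 1774, lower 95% counting bound 1235, adjusted p = 2.52e-05). The bound pools the SE libraries, which had 0 and 17 counts of Dcn, and does not cover their spread. Dpt went from 3433 and 5025 to 4.29 and 1.72, from 6 and 2 counts (ratio 1408, lower bound 695, adjusted p = 1.86e-06), and Pi16 from 264 and 707 to 1.43 and 4.29 (ratio 169.7, lower bound 88.0, adjusted p = 4.63e-05). The library above the limit was the second for Dcn and Pi16 and the first for Dpt.

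Gsn, Pdgfra and Ly6a stayed above the limit in both SE libraries. Gsn had 48017 and 89353 normalized counts in SF, the highest levels of any marker in any library, and 1409.7 and 1961 in SE, so that 2.45% was left (log2 fold change -5.16 ± 0.363 SE, adjusted p = 8.83e-06). Pdgfra went from 1438 and 2115 to 40.1 and 21.5, with 1.73% left (log2 fold change -5.65 ± 0.392 SE, adjusted p = 8.15e-06). Ly6a was the marker that did not pass the test. It had 134 and 245 in SF and 58.6 and 67.8 in SE, which is 33.4% (log2 fold change -1.40 ± 0.999 SE, adjusted p = 0.277, not past the threshold under any alternative).

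**Figure D2:**
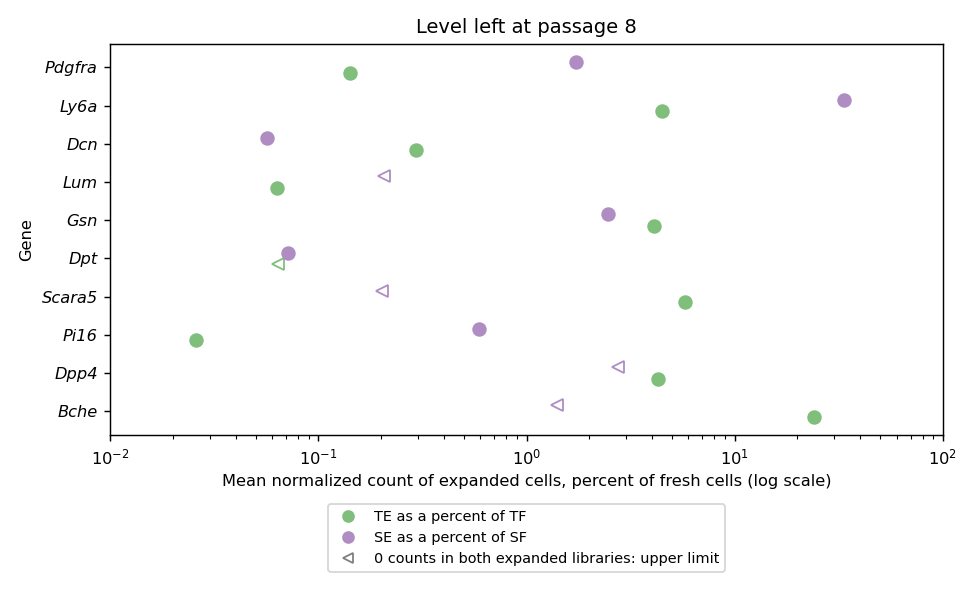
Mean normalized count of expanded cells as a percent of the mean of fresh cells of the same origin, on a log axis, for each marker (n = 2 libraries per group). Open triangles are upper limits for markers with 0 counts in both expanded libraries. Bche and Scara5 lie farthest to the right for TE, apart from their limits for SE, and Ly6a, Pdgfra and Pi16 lie farther to the right for SE than for TE.

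Which markers were absent after culture and which remained was not the same list in the 2 origins. In TE, Dpt and Pi16 were absent from both libraries, Ly6a, Lum and Dpp4 were detected in 1 library, and Pdgfra, Dcn, Gsn, Scara5 and Bche remained in both. In SE, Lum, Scara5, Dpp4 and Bche were absent, Dcn, Dpt and Pi16 were detected in 1 library, and Pdgfra, Ly6a and Gsn remained. Pdgfra and Gsn were the markers that remained in both expanded groups, and no marker was absent from both. These lists depend on the limit. Pdgfra passed it in the second TE library by a single count. With a limit of 10 counts, Gsn was the only marker that remained in both expanded groups, and Lum, Dpt, Pi16 and Dpp4 were absent from both, while 4 markers remained in TE and again 3 in SE. Thus 2 of 10 markers were absent and 5 remained in TE, where 8.36% of the 15098 tested genes above the limit in both TF libraries were absent and 85.3% remained. In SE, 4 of 10 were absent and 3 remained, against 6.50% and 86.6% of the 15637 tested genes above the limit in both SF libraries.

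The 2 TE libraries differed in the markers that were left. Gsn, Scara5 and Bche were the markers that averaged 50 or more normalized counts in TE. Scara5 was 2.70-fold and Bche 2.06-fold higher in the second TE library, whereas Gsn had a ratio of 0.978. Over the 10607 tested genes that averaged 50 or more in TE, the median of this ratio was 0.999 and its 95th percentile 1.48. Scara5 and Bche averaged 73.4 and 63.0, near the lower end of that set. The percentile is thus not matched to their level. The remaining markers averaged below 50 and were not set beside these genes. They included Dcn, with 77 and 24 counts in the first and second TE library, and so lower in the second. Ly6a had 22 and 0, Pdgfra 12 and 4, and Lum 8 and 0.

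The difference between the 2 effects of culture was tested as an interaction, (TE versus TF) minus (SE versus SF). It passed the threshold for Scara5 and Bche, with the smaller loss in TE, and for Pdgfra, with the smaller loss in SE. Of all genes tested, 4.70% were called higher and 9.62% lower in the interaction (826 higher of 2517 called, and 1499 of 3418 under DESeq2). For Pdgfra the interaction was -3.72 ± 0.581 (SE) on the log2 scale (adjusted p = 0.00318). The adjusted p was 0.00324 for Scara5 and 0.00703 for Bche, and their fitted values have no size because SE was at 0. For Ly6a, with 4.46% left in TE and 33.4% in SE, the interaction missed the threshold (-3.01 ± 1.46 SE, adjusted p = 0.209), as it did for Dcn, with 0.296% left in TE and 0.0564% in SE (2.35 ± 1.06 SE, adjusted p = 0.177). It missed it also for Gsn (0.61 ± 0.433 SE, adjusted p = 0.400), Dpt (adjusted p = 0.0543), Pi16 (0.0827), Dpp4 (0.223) and Lum (0.568).

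The expanded groups were then compared directly (TE versus SE), with the same TE and SE libraries as above. Scara5 and Bche were higher in TE, at least 31.1-fold (adjusted p = 0.00195) and at least 26.7-fold (adjusted p = 0.00332). These bounds take the TE mean. The first TE library, at 39.7 normalized counts for Scara5 and 41.2 for Bche, would give smaller folds. Pdgfra was 5.10-fold higher in SE, with a 95% counting interval from 3.02 to 9.52 (log2 fold change TE versus SE -2.31 ± 0.494 SE, adjusted p = 0.0216). Gsn was 2.97-fold higher in SE (log2 fold change -1.55 ± 0.314 SE, adjusted p = 0.0173). Of all genes tested, 3.15% were called higher and 4.07% lower in TE. The call of Gsn was lost without either TE library, and that of Pdgfra without the second TE library, without the first SE library, and when TE and SE alone were fitted, with adjusted p from 0.0638 to 0.237. The other 6 markers did not pass the test, with adjusted p from 0.0724 for Dpt to 0.591 for Pi16.

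The fresh groups were compared for origin (TF versus SF). Pi16, Lum and Pdgfra were higher in TF and Gsn was lower, and in each of these 4 markers the libraries of the groups did not overlap. Of all genes tested, 15.1% were called higher and 9.13% lower in TF (2655 higher of 4261 called, 2110 of 4053 with median-ratio size factors and 2475 of 5121 under DESeq2). Pi16 was 6.13-fold higher in TF (log2 fold change 2.76 ± 0.459 SE, adjusted p = 0.00274). Lum was 4.15-fold higher (2.20 ± 0.488 SE, adjusted p = 0.0128), a call that was lost under DESeq2 with an adjusted p of 0.330. Pdgfra was 2.39-fold higher (1.41 ± 0.312 SE, adjusted p = 0.0107), a call that was lost without the first SF library (adjusted p = 0.0670). Gsn was 4.97-fold higher in SF (-2.16 ± 0.317 SE, adjusted p = 0.00153).

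In the fresh groups the other 6 markers did not pass the test, with log2 fold changes between -0.50 ± 1.30 (SE) for Dpp4 and 0.79 ± 0.624 for Bche. Errors of this size do not show that the levels were equal. Dcn was at 12872 ± 909.7 (SD, n = 2) normalized counts in TF and 12939 ± 4498 in SF (0.15 ± 0.557 SE, adjusted p = 0.883), and Dpt at 3583 ± 343 and 4229 ± 1126 (log2 fold change -0.08, adjusted p = 0.847). Dpp4 was at 54.9 ± 4.16 and 86.0 ± 41.1. The libraries of TF and SF overlapped for Dcn, Dpt, Ly6a, Scara5, Dpp4 and Bche. Pi16 and Dpp4 mark the same fibroblast subset, and of this pair Pi16 alone passed the test.

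The 2 SF libraries differed from each other in the markers. All 10 were higher in the second SF library, by 1.46-fold for Dpt and 1.47-fold for Pdgfra up to 2.56-fold for Bche and 2.68-fold for Pi16, with a median of 1.84. Over the 12932 tested genes that averaged 50 or more in SF, the median ratio was 1.04, its 95th percentile was 1.75, and 54.0% were higher in the second library. Among other lists, 28 of 30 other stromal genes were higher in the second SF library (median ratio 1.45), as were 12 of 15 myogenic genes (1.16) and 9 of 9 endothelial genes (1.24). Pax7 had a ratio of 1.13. In TF, 8 of 10 markers were higher in the second library, with a median of 1.07, and Ly6a was lower at 0.506. The fresh level of each marker in SF rests on both of these libraries, and leaving either out changed no call of a marker in SE versus SF.

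**Figure D3:**
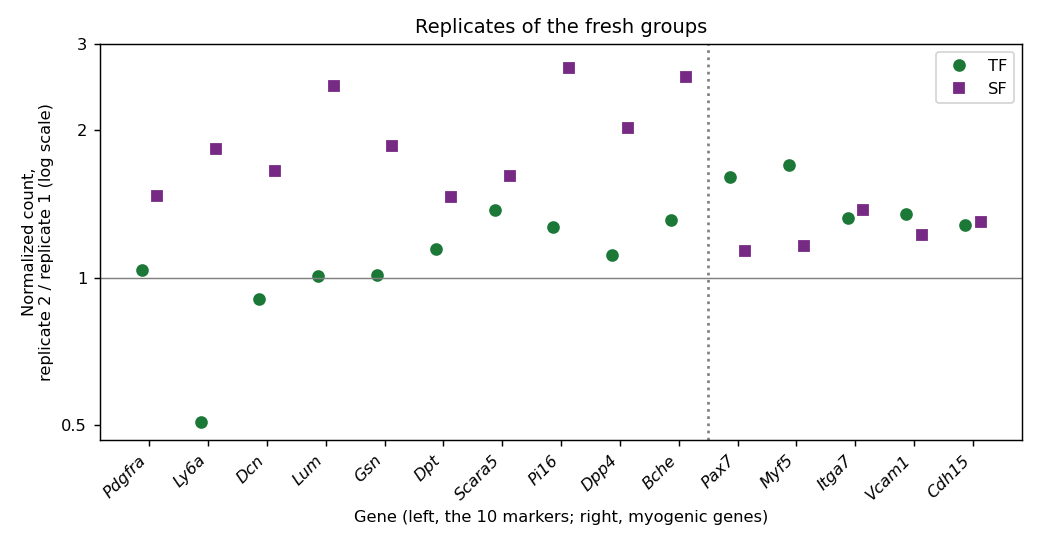
Normalized count of the second library over that of the first in the fresh groups TF and SF, on a log axis, for the 10 markers (left of the dotted line) and for 5 myogenic genes. The SF points of all 10 markers lie above 1, between 1.46 and 2.68, whereas Ly6a in TF lies lowest at 0.506.

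Wider gene lists were read beside the markers, and no list was tested as a set. These lists too were chosen with earlier results of these data known, so their counts are descriptions. The shares of all genes tested were 16.2% lower and 9.86% higher in TE, and 19.8% lower and 20.9% higher in SE. Of 30 other genes of muscle fibro-adipogenic progenitors and fibroblasts, 26 fell and 1 rose in TE, and 21 fell and 2 rose in SE, with median log2 fold changes of -5.05 and -2.02. Their summed level in TE was between 50654 and 50837 normalized counts, and between 56270 and 57853 in SE, against 938166 to 977116 in TF and 133327 to 217046 in SF. Col3a1, a fibrillar collagen, kept 8796 and 9937 normalized counts in TE and 13900 and 11855 in SE. The 2 chains of type I collagen parted in TE, with 262 and 121 for Col1a1 and 18965 and 18964 for Col1a2, from 209379 and 213163 and from 216016 and 223059 in TF. In SE they parted less and with Col1a1 the higher, at 3052 and 7582 for Col1a1 and 1455 and 3824 for Col1a2. SF had 17607 and 32545 for Col1a1 and 14596 and 27251 for Col1a2. The interaction was -8.00 ± 0.780 (SE) for Col1a1 (adjusted p = 0.000353) and -0.68 ± 0.620 for Col1a2 (adjusted p = 0.533).

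Clec3b, a matrix-bound lectin, had 0 counts in all 4 expanded libraries, from 1141 and 1369 normalized counts in TF and 473 and 1080 in SF. The stromal transcription factor Prrx1 rose in TE, from 1374 and 1534 to 2103 and 1940 (log2 fold change 0.53 ± 0.172 SE, adjusted p = 0.0471), and had 1486 and 1365 in SF and 1663 and 1794 in SE (adjusted p = 0.0521). Serpinf1, a secreted serpin, rose in SE (1.05 ± 0.300 SE, adjusted p = 0.0196). The chemokine Ccl11 shared the direction of Scara5 and Bche, with 79.4 and 127 normalized counts in TE and 0 and 8.58 in SE (TE versus SE adjusted p = 0.00522, interaction adjusted p = 0.00472).

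The fibroblast subsets were read from 2 further lists without the markers. Of 12 tested genes of the Pi16 and Dpp4 positive subset, 9 fell in TE and 5 in SE (16.2% and 19.8% of all genes tested). Cd55, a complement inhibitor, fell to 36.0 and 23.1 normalized counts in TE and to 0.722 and 7.43 in SE, whereas Sema3c, a secreted semaphorin, stood at 1661 and 1349 in TF and 1429.5 and 1575 in TE (adjusted p = 0.952). Of 11 genes of the Cxcl14 positive subset, 9 fell in TE, and 10 fell and 1 rose in SE. Smoc2, a calcium-binding matrix protein, fell to 0 in both TE libraries and to 15.7 and 18.0 in SE. Adamts5, a protease that cuts proteoglycans, had 1847 and 2102 in TE against 1670 and 1905 in TF (adjusted p = 0.819), and fell in SE from 1755 and 2012 to 109 and 591 (adjusted p = 0.0123). Neither list was uniform, since each held a gene that kept its TF level in TE beside genes that fell to the limit of detection or near it.

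Relatives of the markers followed them in part, where 16.2% of all genes tested fell in TE and 19.8% in SE. Of 13 other small leucine-rich proteoglycans, the family of Dcn and Lum, 9 fell in TE and 8 in SE. Bgn, the closest relative of Dcn, kept 5804 and 6015 normalized counts in TE, from 28144 and 34384 (adjusted p = 0.000415), and had 5712 and 10520 in SF and 5873 and 5223 in SE (adjusted p = 0.320). Prelp was 563 and 567 in TE and 17.9 and 48.1 in SE (adjusted p = 0.000385 for TE versus SE). Of the 6 other PDGF ligands and receptors, Pdgfrb and Pdgfrl fell in both TE and SE, and the ligand Pdgfc rose in SE from 26.8 and 29.6 to 719.5 and 1098 (adjusted p = 5.47e-06). In TE the Pdgfc level was 665 and 756, against 671 and 858 in TF (adjusted p = 0.908). In SE, the receptor genes of the family thus went down and this ligand gene went up.

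Of 7 tested relatives of Ly6a, 3 fell in TE and 1 rose in SE. Among all genes tested, 16.2% fell and 9.86% rose in TE, and 19.8% fell and 20.9% rose in SE. Ly6e fell in TE, from 1893 and 1867 to 145 and 157 normalized counts (adjusted p = 7.58e-05), and had 532 and 739 in SF and 658 and 334 in SE (adjusted p = 0.673), with an interaction past the threshold (adjusted p = 0.00150). Of 17 tested relatives of the other markers (scavenger receptors, gelsolin family, dipeptidyl peptidases and others), 6 fell and 3 rose in TE, and 7 fell and 3 rose in SE. Avil, a relative of Gsn, rose in TE from 70.1 and 41.8 to 466 and 574 and fell in SE from 182 and 124 to 2.15 and 15.4 (interaction adjusted p = 0.00170). Colec12, a relative of Scara5, fell in both, to 202 and 298 in TE and 546 and 525 in SE.

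The fates that name these progenitors were read from lists of differentiation genes. Among all genes tested, 16.2% fell and 9.86% rose in TE, and 19.8% fell and 20.9% rose in SE. Of 10 tested adipocyte genes, 6 fell in TE, and 6 fell and 1 rose in SE. Zfp423, a preadipocyte transcription factor, fell in TE from 510.2 and 586 normalized counts to 38.9 and 19.3 and rose in SE from 238 and 274 to 529 and 452 (interaction -5.30 ± 0.518 SE, adjusted p = 0.000356). Of 11 genes of activated fibroblasts, 8 fell and 1 rose in TE, and 5 fell and 4 rose in SE. Acta2, a smooth muscle actin that is also used by myoblasts, was the gene that rose in both, to 22589 and 22390 in TE and 5208 and 21850 in SE. Of 16 myogenic genes, 7 fell and 6 rose in TE, and 9 fell and 4 rose in SE. Pax7 and Vcam1, a gene of the sort, were among those that fell in both.

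**Figure D4:**
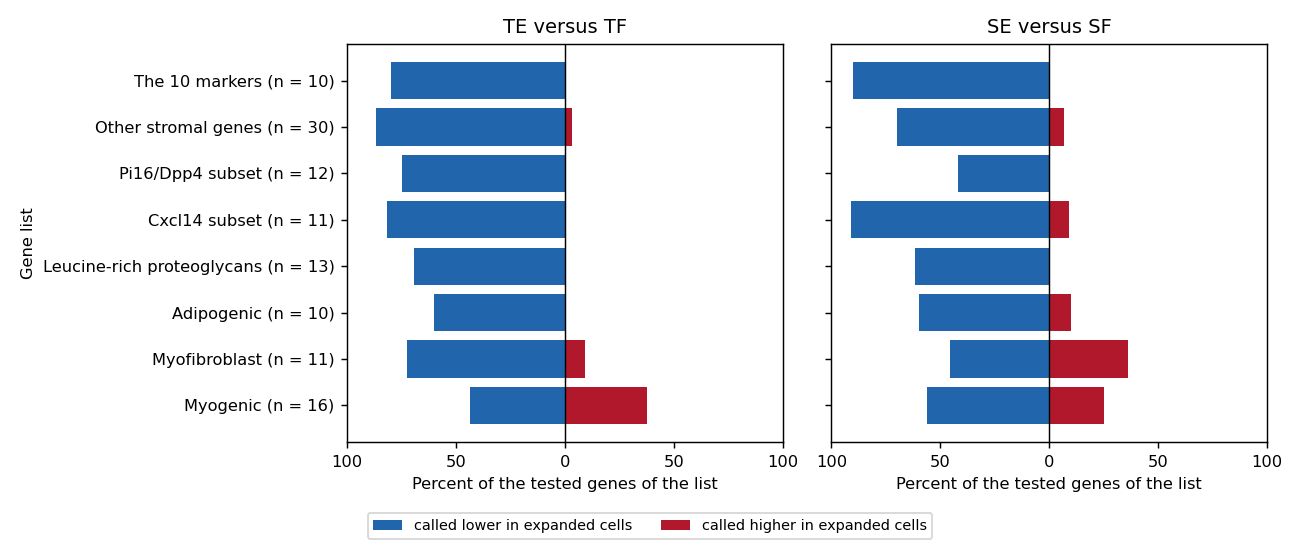
Percent of the tested genes of each list called lower (left, blue) or higher (right, red) in expanded cells, for TE versus TF and SE versus SF, with the number of tested genes of each list on the axis. The 10 markers have 8 genes lower in TE and 9 lower in SE and none higher, and the myogenic list has genes on both sides.

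Endothelial and hematopoietic markers, which the sort of TF was meant to exclude, fell as well. The share of all genes tested that fell was 16.2% in TE and 19.8% in SE. Of 9 endothelial genes, 8 fell in TE and 8 in SE, and their summed level went from between 1286 and 4575 normalized counts in TF to between 38.5 and 41.9 in TE, and from 5331 to 6802 in SF to 70.1 to 76.4 in SE. Of 8 tested hematopoietic genes, 8 fell in TE, and 4 fell and 1 rose (Laptm5) in SE, with sums of 7662 and 637 in the first and second TF library, 521 to 535 in SF, 39.3 to 50.2 in TE and 140 to 184 in SE. The defining hematopoietic marker Ptprc (CD45) was at 0 in all 4 expanded libraries, and Pecam1 (CD31) at 16.3 to 33.6 in SE and 4.63 to 5.99 in TE. Their part in the levels of the 10 markers was not tested. The first TF library held most of the hematopoietic RNA of TF, and the second, at 637, was still above both TE libraries.

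Among the remaining lists, 6 of 8 tested pericyte and smooth muscle genes fell and 1 rose both in TE and in SE. Of 8 Schwann cell genes, 3 fell in each, and of 7 tendon genes, 6 fell and 1 rose in TE and 5 fell and 1 rose in SE. Some lists share genes. Des, which rose, and Notch3, which fell, are in both the pericyte and the myogenic list. Fmod and Kera, which fell, are in both the tendon and the proteoglycan list. Of 7 tested cartilage genes, 6 fell in TE and 5 in SE. Of 4 tested pluripotency genes, 1 fell in each. Among all genes tested, 16.2% fell and 9.86% rose in TE, and 19.8% fell and 20.9% rose in SE. The shortest of these lists hold too few genes to be set against those shares. The summed level of the 10 markers went from 43702 to 44350 in TF to 743 to 780 in TE, and from 64747 to 116987 in SF to 1514 to 2071 in SE, and most of both expanded sums was Gsn.

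For markers on which these differences turn, the genes with the most similar profile over the 8 libraries were sought among 12678 others that averaged 50 or more normalized counts, by the root mean square difference of centered log2(normalized count + 1). The profile of Scara5 was closest to that of Aldh1a1, a retinaldehyde dehydrogenase, at 0.667. Aldh1a1 had group means of 769 in TF, 21.4 in TE, 990 in SF and 0 in SE. Bche was closest to Nmi (0.723; group means 173, 27.5, 212 and 0) and C1qtnf7 (0.774). Pdgfra was closest to Angptl1 (0.549; 611, 0.374, 373 and 9.08) and Plxna4 (0.579). These genes shared the difference between TE and SE with their marker, by construction of the measure.

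Dpt was closest to C4b (0.666) and Edn3 (0.731), both with a mean of 0 in TE, and Pi16 to Olfml1 (0.807) and the opioid precursor Penk (0.821). Lum was closest to Cxcl14 (0.788), the chemokine that names a fibroblast subset, and Cilp (0.882), and Dpp4 to Adamts9 (0.527) and Timp4 (0.528). Dcn had no match as close as these, with C1ra and then Cxcl14 the nearest, the latter at 1.29. Ly6a was closest to Scml4 (0.533) and to Pcdhga3 (0.416), a protocadherin whose exons are shared with its cluster, so that its counts are uncertain. The likeness is a description over 8 libraries in 4 groups.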

How the data were processed

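RNA of 8 mouse libraries, 2 in each of TF, TE, SF and SE, was analysed. The authors deposited 1 table of estimated counts per gene symbol, not normalized. The submitters' processing notes name CASAVA, kallisto 0.44.0 and the builds GRCm38 and mm10 without their roles. Because kallisto-type estimates share reads between similar transcripts, levels of paralogs are uncertain. Whole numbers made up 74.4% to 84.4% of a library's values, and the rest were rounded before testing.

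Genes were filtered with filterByExpr (17582 of 24980 kept, all 10 markers among them), normalized by TMM and tested over all 8 libraries in 1 fit with edgeR's quasi-likelihood test and Benjamini-Hochberg adjustment over all tested genes (R 4.3.3, edgeR 4.0.16). Calls needed an adjusted p below 0.05 and a fold change above 1.25. The common dispersion was 0.233. The fit was tested on simulated counts for TE versus TF only, with changes far smaller than the largest falls given here. Replicates of a group differed by more than sampling noise (chi-square per degree of freedom 11.7 to 87.2) and were kept apart. Levels are counts divided by DESeq2 1.42.0 size factors. Folds against a group with 0 counts in both libraries are bounds at 3 counts per library, taken from the mean of the other group. Low counts have an exact 95% counting interval, from the summed counts of both libraries. Neither covers the spread between libraries, so a single library can give a smaller fold. The alternatives were median-ratio size factors, no filter, DESeq2, only the groups compared, a replicate block, glmTreat with the fold threshold as its null, a limit of 10 counts and each library left out.

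The markers, gene lists and motifs were chosen with earlier results of these data known. Named genes were the markers, the 2 genes most like each marker on which a difference turned, the sort genes, and of each list the 3 genes with the highest mean level and those with the largest called change in each direction. Pax7 was added to them as a check of the labels.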

Additional observations from a re-analysis of the deposited data

Results flagged for a closer look

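The effect of culture differed between origins for 3 of the 10 markers in the interaction test, (TE versus TF) minus (SE versus SF), on the log2 scale in edgeR's quasi-likelihood test. For Pdgfra the difference was -3.72 ± 0.581 (SE, adjusted p = 0.00318), with 0.142% of the fresh level left in TE and 1.73% in SE. For Scara5 the fitted difference was 9.05 (adjusted p = 0.00324) and for Bche 8.33 (adjusted p = 0.00703). Both SE libraries had 0 counts of these genes, so that the fitted values have no size, and TE kept 5.75% of the TF level of Scara5 and 24.0% of that of Bche.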

How the results depend on the processing

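In SE versus SF, 9 markers were called under every alternative, and all 140 marker values kept their direction and call. In TE versus TF, 8 to 10 were called. In TE versus SE, 8 were called without the filter on low counts, and 2 to 6 with 1 library left out, lowest without the second TE library. In the interaction, 7 were called without the filter, 5 under DESeq2 and 3 to 5 with 1 library left out. Without the filter, calls over all genes rose as well, from 4581 to 5497 in TE versus TF. They rose from 1268 to 2260 in TE versus SE and from 2517 to 3646 in the interaction. Under DESeq2 they were 5625, 2117 and 3418 in the same order. The higher marker counts in these settings thus came with more calls over all genes. In TE versus TF, 9 markers were called with median-ratio size factors and with the replicate block, where all genes had fewer calls, 4527 and 4321. The differences between replicates were not correlated between groups (correlation of deviations between -0.0339 and 0.0169). This cannot show whether samples with the same replicate number shared an animal, teratoma or culture. A replicate block gave 5 calls in the interaction, adding Dpt and Pi16, with 2327 calls over all genes against 2517 in the main fit. The cause of these differences was not tested. In TF versus SF the sign turned for markers that were not called. With median-ratio size factors the log2 fold change was -0.0081 for Dcn and -0.037 for Ly6a, and under DESeq2 -0.0075 and -0.036. Ly6a was at -0.072 with the replicate block. With 1 library left out, the value ranged from -0.21 to 0.60 for Dcn, -0.46 to 0.67 for Ly6a, -0.37 to 0.26 for Dpt, -0.052 to 0.72 for Scara5 and -0.95 to 0.14 for Dpp4. The interaction of Lum ranged from -2.20 to 3.53, being negative without the first TE library, and Lum and Dpp4 gave no TE versus SE value without the TE library that held their counts. The median log2 fold change of all genes moved from 0.08 to -0.08 in TF versus SF, from -0.23 to -0.43 in SE versus SF and from -0.18 to -0.04 in the interaction with median-ratio size factors. Levels under 3 counts per library could not be told from 0 at this depth.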

Other observations

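Other genes of adipocytes and activated fibroblasts changed with culture in 1 or both origins. Fabp4, a lipid carrier of adipocytes and endothelial cells, had 0 counts in all 4 expanded libraries, from 181 and 73.8 normalized counts in TF and 712 and 1599 in SF. Cd36, a fatty acid transporter, had 140.2 and 64.0 in TF and 157 and 254 in TE (adjusted p = 0.306 in edgeR's quasi-likelihood test), and fell in SE from 879 and 1338 to 8.58 and 72.1 (adjusted p = 0.00183, interaction 5.67 ± 1.08 SE, adjusted p = 0.00810). Cebpb, a transcription factor of early adipogenesis, fell in TE from 3948 and 3037 to 1713 and 1777 and in SE from 9869 and 13202 to 631 and 834 (interaction 2.84 ± 0.336 SE, adjusted p = 0.000847).

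Cthrc1, a secreted protein of activated fibroblasts, went in opposite directions. It had 515 and 693 normalized counts in TF and 0 in both TE libraries, at least 265-fold lower (adjusted p = 0.00103), and rose in SE from 15.3 and 0 to 1282 and 270.3 (adjusted p = 0.00135). The level in SE differed several-fold between its 2 libraries. Mfap5, a microfibril protein of the Pi16 and Dpp4 positive subset, fell in TE from 1554 and 1922 to 8.99 and 1.54 and in SE from 236 and 268 to 5.72 and 41.2 (interaction -5.01 ± 1.06 SE, adjusted p = 0.0129).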
